A study of Mus musculus with 6 samples.

Results

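Integrins are the receptors by which fibroblasts hold on to collagen, laminin and fibronectin, and focal adhesions are the protein assemblies that tie integrins to the actin cytoskeleton. Here the RNA of 37 such genes was followed in cultured dermal fibroblasts of mice without and with thrombospondin-2. The 37 genes, of 23407 in the deposited table, were taken by gene symbol from a fixed list of 18 integrin subunits outside the leukocyte group and 19 focal adhesion adaptors, and all 37 symbols were found. Bulk RNA sequencing of poly(A) RNA covered 6 libraries, 3 labelled TSP2KO and 3 labelled WT. TSP2KO cells come from mice lacking thrombospondin-2, a secreted matricellular protein encoded by Thbs2, and WT cells from wild-type mice. Cells of both genotypes were isolated at 12 weeks of age from dorsal skin, by trypsin to part the dermis from its neighbouring layers and collagenase to free the cells. They grew for 3 to 5 days with serum and were used at passage 1, and no treatment is named. The allele, strain, sex and number of mice were not given in the labels. Nothing in the labels says that the 3 libraries of a genotype came from separate mice. The p-values then reflect the spread between these libraries alone, and that spread may be technical.

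An integrin is a pair of an alpha and a beta subunit, and the alpha subunit largely sets which matrix protein is bound. Talin and kindlin bind the tail of the beta subunit and switch the receptor on, and the complex of integrin-linked kinase (ILK), PINCH and parvin joins it to actin. Focal adhesion kinase (FAK), paxillin and p130Cas pass on signals, while vinculin, alpha-actinin, tensin, filamin, zyxin, VASP and palladin bind or bundle actin as tension builds. In dermal fibroblasts the collagen receptor with the alpha 11 chain and the fibronectin receptor with the alpha 5 chain are well known, and large adhesions with stress fibres are a mark of the contractile fibroblast, the myofibroblast.

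Thbs2 checked the labels: it had 5177, 6635 and 4891 normalised reads in the TSP2KO libraries, against 122061, 116720.0 and 8841 in the WT libraries, with the library labelled WT 3 last. The last of these went against its label, lying well below WT 1 and WT 2 and close to the TSP2KO libraries. Across all tested genes, which are not independent, its log2 values correlated at 0.960, 0.939 and 0.880 with TSP2KO 1, TSP2KO 2 and TSP2KO 3. The correlations were 0.892 with WT 1 and 0.892 with WT 2, so TSP2KO 3 was the library least like it. The library labelled WT 3 was kept in its labelled group, and results are also given without it. Values are the authors' normalised counts per gene, called normalised reads here, and the genotypes were tested with limma on log2(value + 1). The estimated depth was 14776476 to 20521973 reads in the TSP2KO libraries and 18266756 to 34599753 in the WT libraries. All 11 dermal fibroblast markers passed the filter on low values, and Pdgfra, the receptor that marks dermal fibroblasts, had 8459.9, 4442 and 5845 normalised reads in the TSP2KO libraries, against 21543, 14915 and 14328 in the WT libraries. In bulk samples fewer cells of a type and less RNA per cell cannot be told apart.

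The starting region is shown for 3 of the 8 genes in which all 3 TSP2KO libraries lay above all 3 WT libraries. The others, Actn1, Bcar1, Flna, Ilk and Palld, are not shown. Each window printed here is the 250 bases before the RefSeq start on GRCm38.p6, written 5′ to 3′ along the gene, with motif matches in capitals. Vcl, encoding vinculin, lies on the plus strand (chr14:20929148-20929397), and Tns1, encoding tensin 1, on the minus strand (chr1:74124549-74124798). Itga8, encoding the alpha 8 chain, lies on the minus strand (chr2:12301945-12302194).
Vcl: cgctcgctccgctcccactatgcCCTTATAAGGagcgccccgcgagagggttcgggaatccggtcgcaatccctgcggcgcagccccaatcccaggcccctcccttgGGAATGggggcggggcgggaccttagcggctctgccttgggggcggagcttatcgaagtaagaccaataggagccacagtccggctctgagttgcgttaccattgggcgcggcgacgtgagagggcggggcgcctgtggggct
Tns1: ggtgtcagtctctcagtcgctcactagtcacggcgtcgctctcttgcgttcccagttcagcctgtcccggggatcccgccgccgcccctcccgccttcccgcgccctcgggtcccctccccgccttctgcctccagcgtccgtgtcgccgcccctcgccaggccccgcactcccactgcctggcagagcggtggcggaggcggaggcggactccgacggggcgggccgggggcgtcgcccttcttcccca
Itga8: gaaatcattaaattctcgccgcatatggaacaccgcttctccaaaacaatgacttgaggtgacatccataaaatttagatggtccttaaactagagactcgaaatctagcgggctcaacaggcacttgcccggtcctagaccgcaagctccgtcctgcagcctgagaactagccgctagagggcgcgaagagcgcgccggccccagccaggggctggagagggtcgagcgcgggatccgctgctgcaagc
The first run of capitals in Vcl is a CArG box, the motif bound by serum response factor (SRF), and the second is GGAATG, the motif bound by TEAD factors. Neither motif, nor the AP-1 motif TGANTCA, was found on either strand in the Tns1 and Itga8 windows, which says only that these letters are not there. RefSeq promoters were matched for 28 of the 37 genes, 36 promoters in all. The CArG box was in 3 of these 36 (8.33%; Fermt2, Itgb6 and Vcl) and in 1.47% of all 32851 promoters. Of the 8 genes above WT without overlap, only Vcl had it. GGAATG was in 6 of the 36 (16.7%; Actn4, Flna, Itga10, Itgb1, Palld and Vcl) and in 12.6% of all, and TGANTCA was in 3 (8.33%; Actn4, Palld and Zyx) and in 6.75% of all. A match is a description of the sequence and no evidence of binding.

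Of the 37 genes, 36 passed the filter of a mean of at least 10 normalised reads over the 6 libraries. The exception was Itga10, a collagen receptor chain of cartilage, listed at 6.32, 1.68 and 0 in the TSP2KO libraries, against 2.58, 0.785 and 4.49 in the WT libraries. None of the 36 passed the threshold of a limma adjusted p under 0.05, and the smallest was 0.109, for Itga8. Over all 14707 genes tested, 9 passed (0.0612%), 9 of them lower in TSP2KO (0.0612%) and 0 higher (0%), where 538 were higher at an unadjusted p under 0.05. At an unadjusted p under 0.05, 6 of the 36 were higher in TSP2KO (16.7%, against 3.66% of all genes) and 3 were lower (8.33%, against 6.09% of all genes), where 9.75% of all genes reached it in either direction. The 3 TSP2KO libraries lay above all 3 WT libraries in 8 genes (22.2%, against 5.9% of all genes) and below them in 2 (5.56%, against 8.27% of all genes), where 14.2% of all genes did either.

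Adaptors and integrins were also counted apart. Of the 19 adaptors, 17 had a log2 fold change (TSP2KO minus WT) above 0, with a median of 0.39, and 7 lay above WT without overlap. Of the 17 tested integrins, 8 had a fold change above 0 and 9 below, with a median of -0.03, and 1 lay above and 2 below WT without overlap. Among all genes 48.5% had a fold change above 0, the median was -0.01, and 5.9% lay above and 8.27% below WT without overlap. The shares without overlap were 36.8% above and 0% below for the adaptors. For the integrins they were 5.88% above and 11.8% below, near those of all genes. The difference between adaptors and integrins was not tested. 

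Without the library labelled WT 3, Actn1, Itga4 and Itga8 passed, all higher in TSP2KO, which is 8.33% of the 36, and none passed as lower. In the same comparison 5.17% of all genes passed, 2.43% higher and 2.75% lower. The groups then did not overlap in 10 genes higher in TSP2KO (27.8%, against 21.1% of all genes) and in 6 lower (16.7%, against 22.3% of all genes). The median log2 fold change was 0.24 for the 36 genes and -0.03 for all genes.

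**Figure D1:**
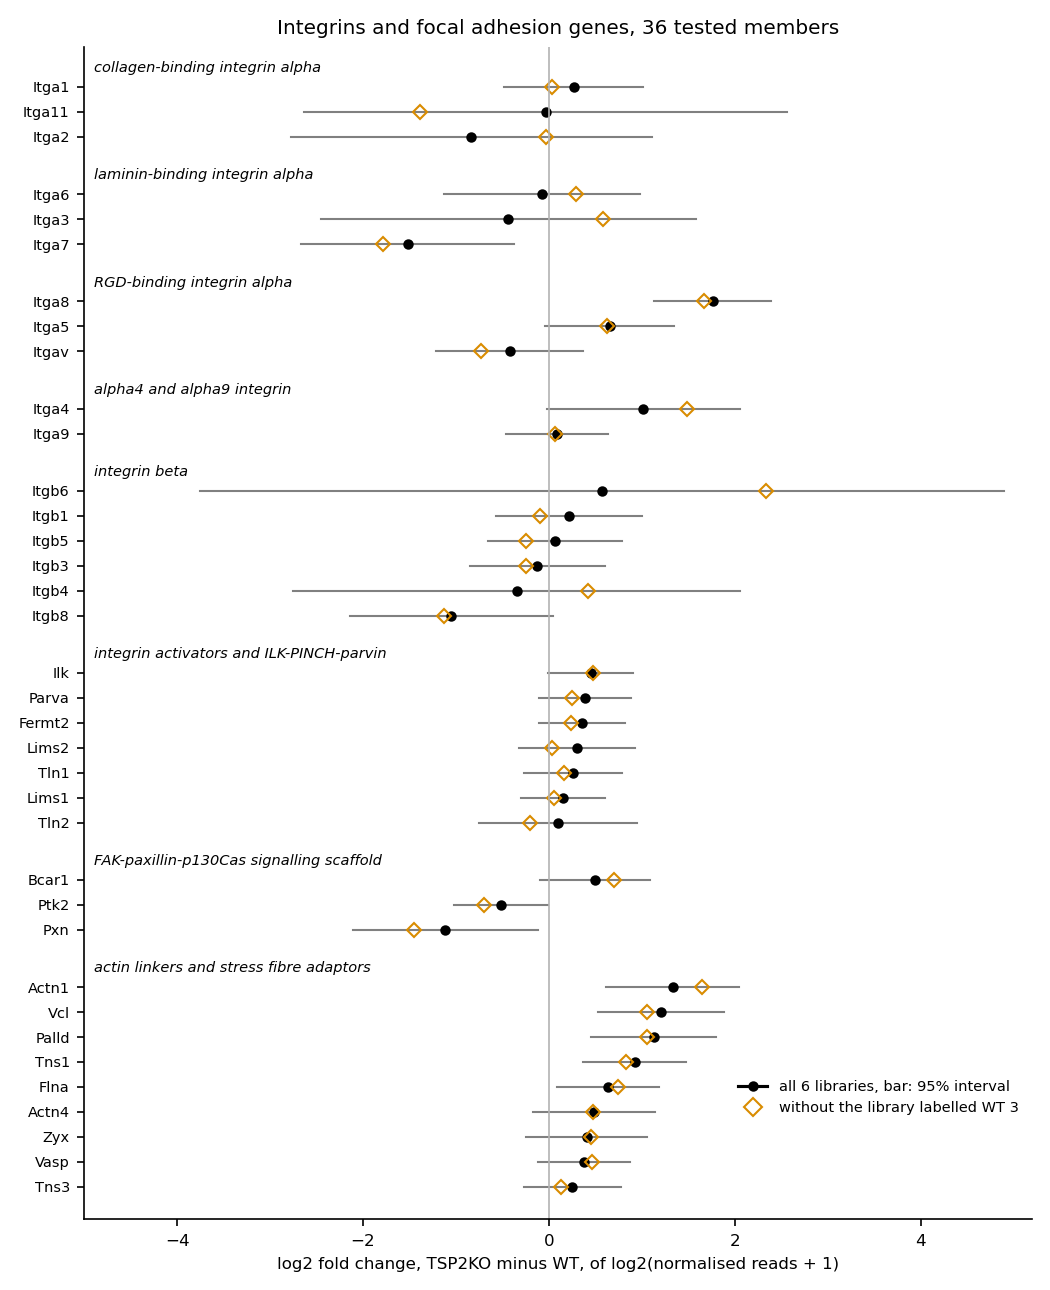
Log2 fold change (TSP2KO minus WT) of the 36 tested genes, grouped by role and ordered within each role; filled circles use all 6 libraries with the 95% interval as a bar, and open diamonds leave out the library labelled WT 3. All 9 actin linkers lie right of 0, between 0.25 for Tns3 and 1.33 for Actn1, while the integrin alpha chains run from -1.52 for Itga7 to 1.76 for Itga8.

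Among the receptors for the RGD motif of fibronectin and related proteins, Itga8 stood above WT in every TSP2KO library. Its product pairs with Itgb1, binds nephronectin and fibronectin, and is known from smooth muscle, kidney mesangium and lung fibroblasts. Itga8 (chr2:12106632-12301922, minus strand, mm10) had 2216, 2368 and 2282 normalised reads in the TSP2KO libraries, against 1019.6, 506 and 594 in the WT libraries. The lowest TSP2KO value was above the highest WT value, which came from WT 1, and the library labelled WT 3 lay between WT 1 and WT 2. Means were 2289 ± 76.0 in TSP2KO and 706 ± 275 in WT (SD, n = 3 each), a 3.39-fold difference between the means on the log2(value + 1) scale (log2 fold change 1.76, SE 0.27, 95% interval 1.13 to 2.39, limma adjusted p = 0.109). Leaving out the library labelled WT 3 gave 1.67, which passed (limma adjusted p = 0.0292). The antisense gene E030013I19Rik shares 5.05% of the exon bases of Itga8 and had 47.1, 30.4 and 65.9 normalised reads in the TSP2KO libraries, against 9.45, 5.63 and 7.34 in the WT libraries, also without overlap. The labels do not give the strand setting of the counting, so reads of the 2 genes cannot be told apart where they overlap.

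The other RGD receptors overlapped between genotypes. Itga5, the alpha chain of the main fibronectin receptor, had 2137, 3669 and 3782 normalised reads in the TSP2KO libraries, against 2607, 1533 and 1893 in the WT libraries. TSP2KO 1 lay below WT 1, and the log2 fold change of 0.66 did not pass (limma adjusted p = 0.531). Itgav, which pairs with several beta chains to bind vitronectin, fibronectin and latent TGF-beta, had 1219, 905 and 1703 normalised reads in the TSP2KO libraries, against 1870.2, 2238 and 1083 in the WT libraries. The library labelled WT 3 lay within the TSP2KO range, WT 1 and WT 2 lay above all 3 TSP2KO libraries, and the log2 fold change was -0.42 with it and -0.73 without it (limma adjusted p = 0.75 and 0.167). Per kb of exon, the Itga8 share of the summed RGD alpha chains was 35.5, 28.0 and 25.1% in the TSP2KO libraries, against 16.5, 11.7 and 14.3% in the WT libraries. The Itgav share was 13.4, 7.33 and 12.8% in the TSP2KO libraries, against 20.7, 35.4 and 17.8% in the WT libraries. The shares of Itga8 did not overlap between genotypes. Those of Itgav did not either, but a share also falls when the other chains of the sum are higher, and the Itgav level itself overlapped.

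**Figure D2:**
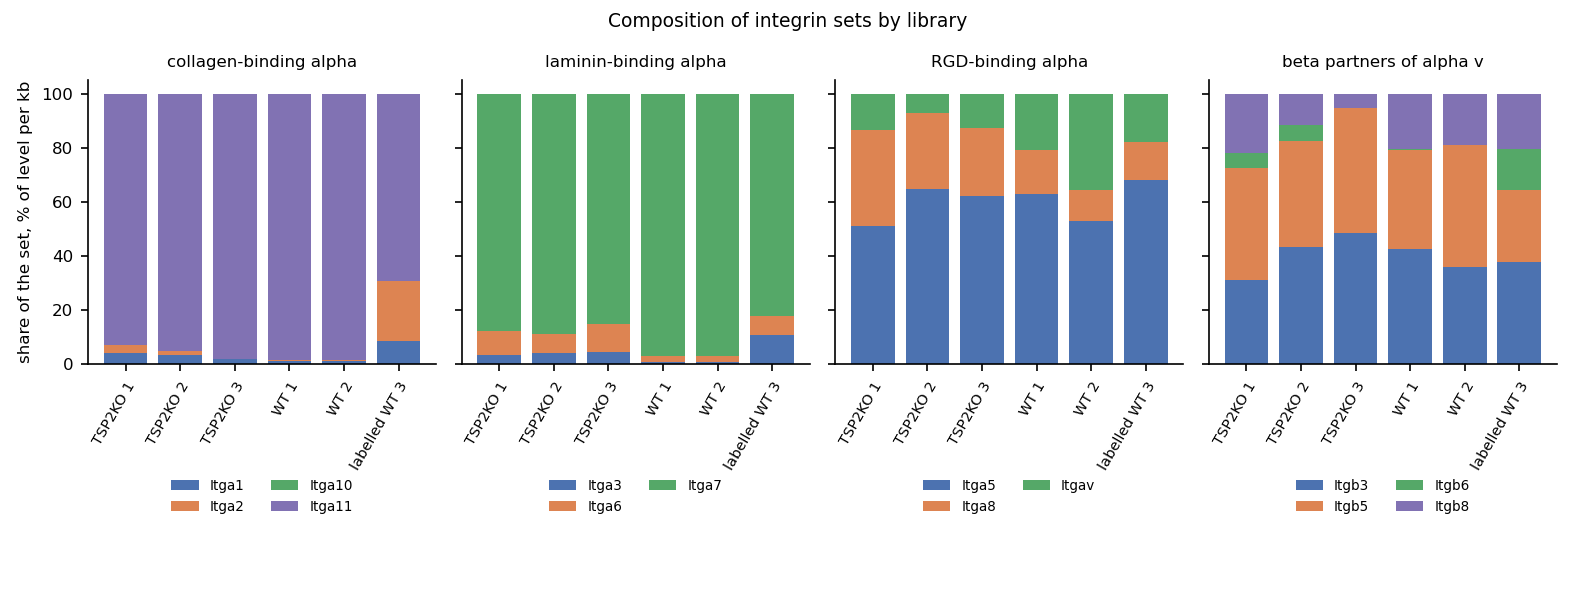
Share of each integrin chain in the summed level per kb of its set, in percent, one bar per library. Itga8 takes 25.1 to 35.5% of the RGD alpha chains in TSP2KO and 11.7 to 16.5% in WT, and Itga11 takes 92.9 to 98.5% of the collagen-binding chains in every library except the one labelled WT 3.

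The receptors for collagen were led by Itga11, whose product is the main receptor of fibroblasts for fibrillar collagen. Itga11 had 4172, 8596 and 16762 normalised reads in the TSP2KO libraries, against 24741, 19782 and 1320.2 in the WT libraries. Its levels ran widely within each genotype and were lowest in the library labelled WT 3 and in TSP2KO 1. The log2 fold change was -0.03 (SE 1.11, limma adjusted p = 0.994), and -1.39 without the library labelled WT 3, where every TSP2KO value lay below WT 1 and WT 2 but the threshold was not passed (limma adjusted p = 0.166). Itga1, a receptor that prefers basement membrane collagen, had 675, 1107 and 1231 normalised reads in the TSP2KO libraries, against 1141, 786 and 589 in the WT libraries. Itga2, a collagen receptor also of keratinocytes and platelets, had 176, 183 and 38.3 normalised reads in the TSP2KO libraries, against 111, 109 and 586 in the WT libraries. Both overlapped between genotypes, and the highest Itga2 value came from the library labelled WT 3.

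Among the receptors for laminin, Itga7, known as the laminin receptor chain of muscle and also made by vascular and Schwann cells, lay below WT in every TSP2KO library. It had 3382, 3121 and 1048 normalised reads in the TSP2KO libraries, against 9340.0, 6282 and 4444 in the WT libraries. All 3 TSP2KO values lay below the lowest WT value, that of the library labelled WT 3. Means were 2517 ± 1279 in TSP2KO and 6689 ± 2473 in WT (SD, n = 3 each). The log2 fold change was -1.52 (SE 0.49, 95% interval -2.67 to -0.37), short of the threshold (limma adjusted p = 0.359), as was the -1.78 found from the other 5 libraries (0.0882). The Schwann cell and melanocyte markers, 8 of 9 tested, summed to 1739 to 5863 normalised reads in TSP2KO and 5054 to 9163 in WT. Their part in the Itga7 difference was not tested.

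Itga3 and Itga6, the laminin receptor chains of epithelia, followed a different order. Itga3 had 94.8, 104 and 40.1 normalised reads in the TSP2KO libraries, against 62.3, 38.1 and 412 in the WT libraries. Itga6, which forms the hemidesmosome receptor with Itgb4, had 376, 275 and 142 normalised reads in the TSP2KO libraries, against 230.1, 174 and 427 in the WT libraries. Both were highest in the library labelled WT 3 and low in TSP2KO 3, and their log2 fold changes of -0.43 and -0.07 did not pass (limma adjusted p = 0.915 and 0.975). The Itga7 share of the laminin-binding chains per kb was 87.8, 88.8 and 85.0% in the TSP2KO libraries, against 96.9, 96.8 and 82.1% in the WT libraries.

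Of the remaining alpha chains, Itga4 passed once the library labelled WT 3 was set aside, and Itga9 did not. Itga4, whose product binds fibronectin and the adhesion molecule VCAM-1 and is best known from leukocytes and neural crest cells, had 622, 343 and 519 normalised reads in the TSP2KO libraries, against 143, 204 and 456 in the WT libraries. WT 1 and WT 2 lay below every TSP2KO library, and the library labelled WT 3 lay within the TSP2KO range. The log2 fold change was 1.01 (SE 0.44, limma adjusted p = 0.518), and 1.49 without the library labelled WT 3, where it passed (limma adjusted p = 0.0423). The opposite-strand gene Cerkl shares 8.04% of the Itga4 exon bases and had at most 12.4 normalised reads in TSP2KO and 17.9 in WT. Itga9, whose product binds tenascin-C and osteopontin, had 98.8, 147 and 118 normalised reads in the TSP2KO libraries, against 117, 113 and 109 in the WT libraries. The groups overlapped, with a log2 fold change of 0.09 (95% interval -0.46 to 0.63), the smallest standard error of the tested alpha chains (0.23).

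Leukocyte integrins were followed as markers of another cell type that uses Itga4, and 3 of 8 passed the filter. Itgb2, the beta chain shared by leukocyte integrins, had 26.4, 13.4 and 8.90 normalised reads in the TSP2KO libraries, against 92.7, 102 and 81.5 in the WT libraries. Itgam, the alpha chain of macrophages and granulocytes, had 8.04, 6.71 and 10.7 normalised reads in the TSP2KO libraries, against 77.8, 71.4 and 29.5 in the WT libraries. Both lay below WT in every TSP2KO library, and both passed as lower without the library labelled WT 3 (limma adjusted p = 0.0331 and 0.0175) but not with it (0.111 and 0.143). Itga2b, the platelet alpha chain, overlapped, with 2.87, 16.2 and 11.6 normalised reads in the TSP2KO libraries, against 12.9, 14.9 and 10.3 in the WT libraries. The 15 macrophage markers, 14 of them tested, summed to 775 to 945 normalised reads in TSP2KO and 3638 to 6430 in WT. Of these, C1qb and Cd74 passed as lower with all 6 libraries (limma adjusted p = 0.0456 and 0.0476). The part of leukocyte RNA in the Itga4 values was not tested.

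Beta chains showed small differences in the common partners, and Itgb8 lay lower. Itgb1, the partner of most of the listed alpha chains, ranged over 4396 to 7014 in TSP2KO and 3257 to 7412 in WT, with a log2 fold change of 0.22 (95% interval -0.57 to 1.00). Itgb3 and Itgb5, partners of Itgav in receptors for vitronectin, had log2 fold changes of -0.12 and 0.06, and their ranges overlapped. Itgb8, which with Itgav binds latent TGF-beta, had 820.4, 674 and 223 normalised reads in the TSP2KO libraries, against 1168, 1022 and 918 in the WT libraries. All 3 TSP2KO values lay below all 3 WT values, TSP2KO 3 the furthest, and the log2 fold change was -1.05 (SE 0.46), not past the threshold with the library labelled WT 3 (limma adjusted p = 0.525) or without it (0.239). Itgb4, the hemidesmosome chain, ranged over 57.9 to 766 in TSP2KO and 144 to 937 in WT. Itgb6, an epithelial partner of Itgav, ranged over 4.45 to 228 in TSP2KO and 7.45 to 432 in WT.

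Itga2, Itga3, Itga6, Itgb4 and Itgb6, integrin chains made by epithelial cells, varied between libraries of the same genotype along with the mean level of keratinocyte markers. Of 14 keratinocyte markers 11 were tested, and the sum of all 14 was 594 to 15089.7 normalised reads in TSP2KO and 614 to 43390.2 in WT. None of the 14 was at 0 in all 6 libraries. Relative to WT 1 and WT 2, the mean log2 level of the 11 tested was 3.23, 3.41 and -0.83 in the TSP2KO libraries, against 0.73, -0.73 and 4.60 in the WT libraries. Of the 11, 8 had a log2 fold change above 0 and 3 below, with a median of 0.45. Trp63, the transcription factor of basal keratinocytes, had 334, 355 and 30.3 normalised reads in the TSP2KO libraries, against 150.4, 127 and 965 in the WT libraries. Krt10 varied less and in another order, with 24.7, 38.6 and 29.4 in the TSP2KO libraries, against 17.5, 27.1 and 28.9 in the WT libraries. The library labelled WT 3 was highest for the marker mean and for all 5 integrin chains, TSP2KO 1 and TSP2KO 2 came next, and WT 1, WT 2 and TSP2KO 3 were lowest. For Itga2, Itgb4 and Itgb6 the order of all 6 libraries was that of the marker mean. The part of keratinocyte RNA in these values was not tested. No test of genotype passed for the 5 chains with or without the library labelled WT 3.

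**Figure D3:**
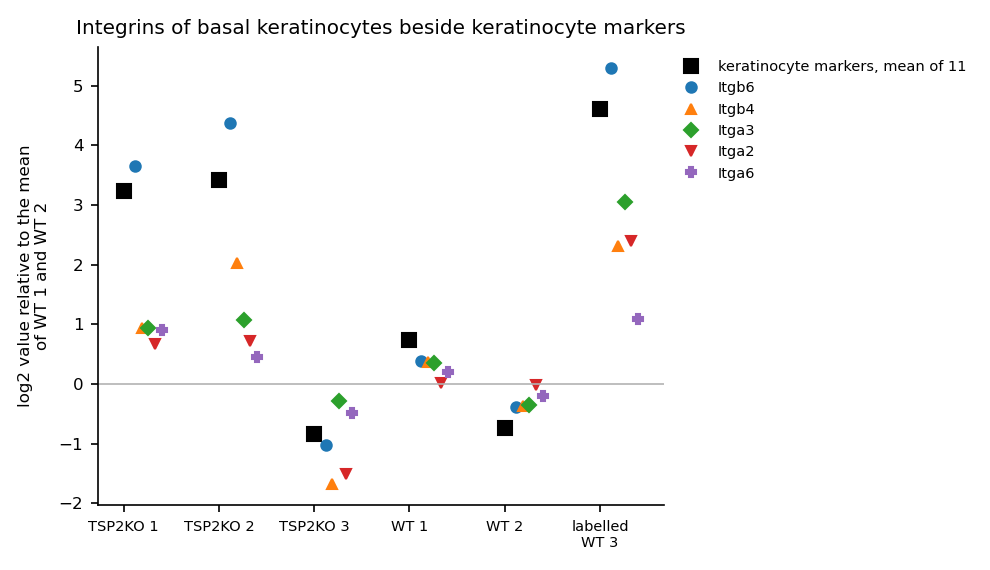
Log2 value of 5 integrin chains made by epithelial cells (coloured symbols) and the mean over 11 keratinocyte markers (black squares) in each library, set against WT 1 and WT 2 averaged. The markers stand at 3.23 and 3.41 in TSP2KO 1 and TSP2KO 2 and at 4.60 in the library labelled WT 3, where the 5 chains also lie above 0, and at -0.83 in TSP2KO 3.

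Per kb of exon, Itga11 and Itgb1 had the highest means of the integrin chains in both genotypes. Itga11 had 1918 ± 1245 normalised reads per kb in TSP2KO and 2978 ± 2405 in WT (SD, n = 3 each), and Itgb1 had 1464 ± 341 in TSP2KO and 1306 ± 509 in WT. Their order was not stable: Itgb1 lay above Itga11 in TSP2KO 1 (1077 and 813 per kb), TSP2KO 2 (1719 and 1675) and the library labelled WT 3 (798 and 257), and below it in TSP2KO 3, WT 1 and WT 2. Itga8 had rank 5 of 18 in TSP2KO, with 311 ± 10.3 per kb, and rank 8 in WT, with 95.9 ± 37.3. Itga7 had rank 4 in TSP2KO, with 311 ± 158, and rank 3 in WT, with 827 ± 306. Itga10 was last in both.

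**Figure D4:**
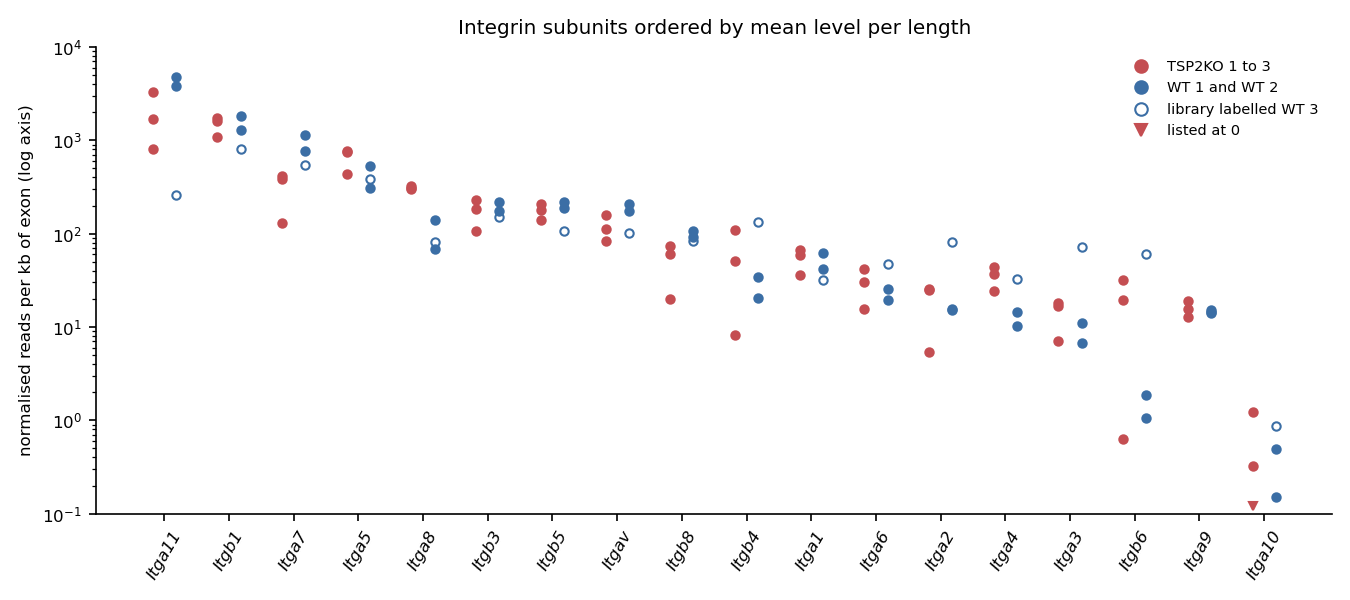
Normalised reads per kb of exon (log axis) of the 18 integrin chains, ordered by the mean over all 6 libraries; TSP2KO libraries stand left of WT libraries, open circles mark the library labelled WT 3, and a triangle marks a value listed at 0. Itga8, at a mean of 311 per kb in TSP2KO and 95.9 in WT, is the chain with every TSP2KO circle above every WT circle, and the lowest Itga11 value is that of the library labelled WT 3.

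All 9 adaptors that link adhesions to actin had a log2 fold change above 0, also after rescaling by trimmed means or by the 75th percentile. Of these, 5 (where 5.9% of all genes did) lay above WT without overlap, and the median was 0.63. Without the library labelled WT 3 the median was 0.74, and 1 of the 9, Actn1, passed as higher, as did 2.43% of all genes. Actn1 (chr12:80167547-80260371, minus strand), encoding alpha-actinin-1, which crosslinks actin filaments in stress fibres, had 968, 865 and 1282 normalised reads in the TSP2KO libraries, against 322, 331 and 629 in the WT libraries. The library labelled WT 3 lay between WT 1 and WT 2 on one side and the TSP2KO libraries on the other. Means were 1038 ± 217 in TSP2KO and 427 ± 174 in WT (SD, n = 3 each), with a log2 fold change of 1.33 (SE 0.30, 95% interval 0.62 to 2.05, limma adjusted p = 0.207), and 1.65 without the library labelled WT 3 (limma adjusted p = 0.0168). An opposite-strand gene shares 6.56% of the Actn1 exon bases.

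Vcl (chr14:20929398-21033676, plus strand), encoding vinculin, which binds talin and actin and reinforces adhesions under load, had 6938, 9785 and 11691 normalised reads in the TSP2KO libraries, against 5661, 3514 and 3251 in the WT libraries. Here the library labelled WT 3 was the lowest of all. The means of 9471 ± 2392 in TSP2KO and 4142 ± 1322 in WT (SD, n = 3 each) gave a log2 fold change of 1.21 (SE 0.29), which missed the threshold with it (limma adjusted p = 0.226) or without it (0.0882). The opposite-strand gene Ap3m1 shares 25.5% of the Vcl exon bases and had a log2 fold change of -0.04. Palld, encoding palladin, which organises actin bundles, had 842, 1081 and 1776 normalised reads in the TSP2KO libraries, against 612, 519 and 486 in the WT libraries. Tns1, encoding tensin 1, which ties integrin tails to actin in fibrillar adhesions, had 2535, 2865 and 4342 normalised reads in the TSP2KO libraries, against 1784, 1761 and 1462 in the WT libraries. In both genes TSP2KO 3 was the highest library and the WT values were close together. The log2 fold changes were 1.13 for Palld and 0.93 for Tns1, and neither passed (limma adjusted p = 0.249 for both; 0.0981 and 0.1001 without the library labelled WT 3).

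Flna, encoding filamin A, which crosslinks actin and binds integrin tails, had the highest mean per kb of the 37 genes over the 6 libraries. In WT 1 and WT 2 Itga11 lay above it per kb (4822 and 3855, against 3065 and 2968). Flna had 47216, 39488 and 57309 normalised reads in the TSP2KO libraries, against 28815, 27899 and 35567 in the WT libraries. The groups did not overlap, and the log2 fold change of 0.63 did not pass (limma adjusted p = 0.434). The other actin linkers overlapped between genotypes. Actn4, the other non-muscle alpha-actinin, ranged over 6589 to 9595 in TSP2KO and 3948 to 7357 in WT (log2 fold change 0.48). Zyx, encoding zyxin, ranged over 767 to 1108 in TSP2KO and 505 to 963 in WT (0.41), and Vasp, encoding its partner in actin assembly, over 557 to 763 in TSP2KO and 406 to 559 in WT (0.38). Tns3, encoding tensin 3, ranged over 2714 to 4034 in TSP2KO and 2472 to 3342 in WT (0.25).

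**Figure D5:**
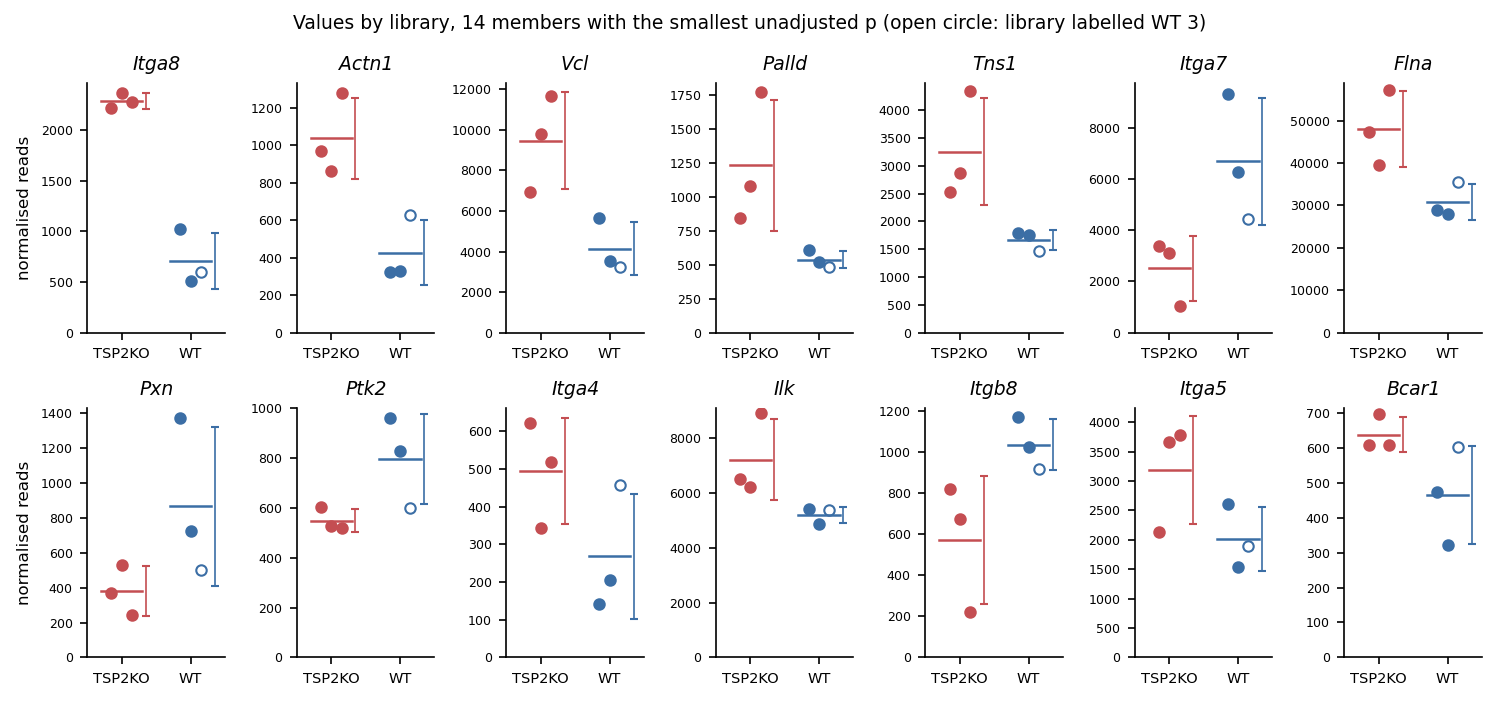
Normalised reads by library for the 14 genes with the smallest unadjusted p, TSP2KO left and WT right in each panel; horizontal lines are means, error bars are SDs (n = 3) and open circles mark the library labelled WT 3. In Itga8, Actn1, Vcl, Palld, Tns1, Flna, Ilk and Bcar1 the TSP2KO circles all lie above the WT circles, and in Itga7 and Itgb8 all below.

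Contractile genes lay higher in the same libraries. Of 14 contractile genes of myofibroblasts, 13 had a log2 fold change above 0 and 11 lay above WT without overlap, where 5.9% of all genes did. Their median was 2.10, and 0 passed the threshold with all 6 libraries. At an unadjusted p under 0.05, 11 were higher (against 3.66% of all genes), and 9 passed as higher without the library labelled WT 3 (against 2.43%). Relative to WT 1 and WT 2 their mean log2 level was 1.61, 1.89 and 2.66 in the TSP2KO libraries, against 0.27, -0.27 and 0.76 in the WT libraries. Acta2, smooth muscle actin, had 53499.9, 56512 and 109857 normalised reads in the TSP2KO libraries, against 11667, 10318 and 18292 in the WT libraries. Cspg4, the NG2 proteoglycan of pericytes, had 4084, 3749 and 5362 normalised reads in the TSP2KO libraries, against 467, 447 and 1997 in the WT libraries, and passed as higher without the library labelled WT 3 (limma adjusted p = 0.00405). Of the 8 pericyte and vascular smooth muscle markers, 4 had a fold change above 0 and 4 below, with a median of -0.02. The lists share Des and Myh11. The part of either list in the levels of Itga8 and the actin linkers was not tested.

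The integrin activators and the ILK complex had small fold changes. All 7 had a log2 fold change above 0, from 0.10 for Tln2 to 0.45 for Ilk, with a median of 0.30, none passed, and Tln2 turned to -0.20 without the library labelled WT 3. Ilk, encoding integrin-linked kinase, had 6486, 6213 and 8896 normalised reads in the TSP2KO libraries, against 5393, 4869 and 5356 in the WT libraries. The groups did not overlap, by a log2 fold change of 0.45 (limma adjusted p = 0.519). Of the Ilk exon bases 89.7% are shared with Taf10 and Rrp8 on the opposite strand, and Taf10 had a log2 fold change of 0.46. Without the strand setting the reads of these genes cannot be told apart. Tln1, the main talin of fibroblasts, ranged over 2916 to 3741 in TSP2KO and 2377 to 3659 in WT (0.26), and Tln2 over 669 to 1307 in TSP2KO and 634 to 1379 in WT. Fermt2, encoding kindlin-2, ranged over 2534 to 2964 in TSP2KO and 1763 to 2594 in WT (0.36), and Parva, encoding alpha-parvin, over 4910.4 to 6694 in TSP2KO and 3512 to 5018 in WT (0.39). The PINCH genes Lims1 and Lims2 ranged over 2995 to 3877 in TSP2KO and 2799 to 3712 in WT and over 1354 to 1703 in TSP2KO and 872 to 1663 in WT (0.15 and 0.30).

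In the signalling scaffold, 2 of 3 genes lay on the lower side in TSP2KO. Pxn, encoding paxillin, the docking protein of early adhesions, had 372, 531 and 246 normalised reads in the TSP2KO libraries, against 1376, 725 and 500.4 in the WT libraries. TSP2KO 2 lay above the library labelled WT 3, so the groups overlapped, and the log2 fold change was -1.12 (SE 0.42, limma adjusted p = 0.444), or -1.45 without that library (0.0767). Ptk2, encoding FAK, the tyrosine kinase of adhesions, had 603, 525 and 518 normalised reads in the TSP2KO libraries, against 959, 830.1 and 601 in the WT libraries. It differed by -0.51 on the log2 scale (limma adjusted p = 0.507), and by -0.70 without the library labelled WT 3 (0.0668), which lay just below the highest TSP2KO value. Bcar1, encoding p130Cas, which FAK and Src phosphorylate when it is stretched, had 608, 696 and 608 normalised reads in the TSP2KO libraries, against 473, 323 and 603 in the WT libraries. TSP2KO and WT did not overlap, by a margin of a few reads to the library labelled WT 3, and the log2 fold change of 0.49 did not pass (limma adjusted p = 0.606).

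Over all 36 tested genes, the median log2 level relative to the WT mean was 0.14, 0.36 and 0.42 in the TSP2KO libraries, against 0.22, -0.09 and -0.18 in the WT libraries. TSP2KO 1 lay below WT 1, so these medians overlapped between genotypes.

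Other genes of the pathway were counted beside the 37. Of 45 further adhesion adaptors and kinases, all tested, 0 passed with all 6 libraries, 4 were higher at an unadjusted p under 0.05, and the median log2 fold change was 0.04. Among those that passed as higher without the library labelled WT 3 were Tgfb1i1 (Hic-5, a paxillin relative, 1.21) and Cav1 (caveolin-1, 1.74), with limma adjusted p of 0.0331 and 0.0161. Tgfb1i1 had 2984, 2971 and 4429.6 normalised reads in the TSP2KO libraries, against 1466, 1468 and 1767 in the WT libraries, where its relative Pxn lay the other way. Of 21 tested genes of the RhoA, myosin and SRF axis, which drives stress fibre contraction, 19 had a fold change above 0, and the median was 0.49. Without overlap, 12 lay above WT and 1 below, where 5.9% of all genes lay above and 8.27% below. None passed with all 6 libraries, where 8 higher genes and 1 lower gene had an unadjusted p under 0.05 (against 3.66% and 6.09% of all genes). Without the library labelled WT 3, 4 passed as higher (Diaph3, Myh10, Myl9 and Mylk), as did 2.43% of all genes. Myl9, the myosin light chain of contractile cells and also among the contractile genes, had 10264, 11307 and 25624 normalised reads in the TSP2KO libraries, against 3752, 2624 and 4391 in the WT libraries.

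Among 29 tested integrin ligands, 11 had a fold change above 0 and 18 below, with a median of -0.27. None passed with all 6 libraries. An unadjusted p under 0.05 was reached by 4 higher and 4 lower genes of the 29 (against 3.66% and 6.09% of all genes). Without overlap, 3 lay above WT and 3 below, where 5.9% of all genes lay above and 8.27% below. Without the library labelled WT 3, Edil3, Lama4, Postn and Tnc passed as lower, as did 2.75% of all genes, and 0 ligands passed as higher. Tnc, encoding tenascin-C, a ligand of Itga9 and Itgav, had 18469, 29386 and 11839.9 normalised reads in the TSP2KO libraries, against 72740.2, 64513 and 73316 in the WT libraries. Lama4, a laminin chain of vessels and fibroblasts, had 3381, 4073 and 2491 normalised reads in the TSP2KO libraries, against 6987, 7477 and 5206 in the WT libraries. Both lay below WT in every TSP2KO library. Col4a1, a chain of basement membrane collagen, had 8100.4, 10784 and 12376 normalised reads in the TSP2KO libraries, against 6907, 6267 and 5743 in the WT libraries. Ccn2, connective tissue growth factor, had 4406, 7829 and 5603 normalised reads in the TSP2KO libraries, against 3947, 2185 and 1343 in the WT libraries. These lay above WT in every TSP2KO library, and neither passed (limma adjusted p = 0.318 and 0.319). Npnt, encoding nephronectin, the ligand of Itga8, was chosen after its values were seen and had 66.1, 63.8 and 107 normalised reads in the TSP2KO libraries, against 46.4, 49.0 and 16.04 in the WT libraries. It lay above WT in every TSP2KO library, at a low level, with a log2 fold change of 1.18 that did not pass (limma adjusted p = 0.490).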

How the data were processed

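Poly(A) RNA of 6 libraries was sequenced. The deposited values are a normalised signal per gene (normalised counts, per the file's own name) from the authors, called normalised reads here. STAR, Partek and DESeq2, the build mm10, and the single-cell tools Cell Ranger and Seurat 5.0.3 are named without role or order in the submitters' processing notes. Count options, strand setting and annotation: not given in the sources used here. Coordinates of 96.4% of genes equal those of GENCODE M21 once 1 base is taken off the stop, and exon lengths are from it. Table columns were assigned by genotype and replicate number, with 0 sample columns left unused. Low values fall on steps per library, but only 76.3 to 78.7% of the values up to 200 reads were whole multiples within 0.02 of a read, so no count test was run. Depth is each total divided by its step.

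Genes with a mean of at least 10 were tested (14707) on log2(value + 1), which understates the change of low genes, with limma 3.58.1 in R 4.3.3: genotype only, a mean-variance trend, shrunken variances, two-sided, Benjamini-Hochberg over all genes tested, threshold 0.05. The script was tested on simulated data. Means and SDs describe the deposited values, and folds are differences of mean log2 values. Values in every library are given for the 14 genes with the smallest unadjusted p and every tested integrin alpha chain, and up to 4 genes with the smallest p could be named per other list; some of these are not reported here. The genes, lists and tests were chosen with earlier results of these data known. Replicate numbers did not pair the libraries: deviations of same-numbered libraries correlated at -0.42, -0.25 and -0.39 across genes. Promoters are from RefSeq, with motifs searched on both strands. The alternatives were a pseudocount of 0.1 or 10, a filter at 100 or none, rescaling by trimmed means (TMM) or the 75th percentile, no trend, a replicate block, and leaving out each library.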

Additional observations from a re-analysis of the deposited data

How the results depend on the processing

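The count of genes lower in TSP2KO, 9 over all genes tested, was 0 with a pseudocount of 0.1, with no filter, with a mean of at least 100, after rescaling by the 75th percentile and with the replicate block, 14 with a pseudocount of 10 and 15 with no mean-variance trend; limma found no higher gene under any of these. With the replicate block no gene of the 36 passed, the smallest limma adjusted p among them was 0.123, and the 36 directions were kept. Leaving out each library in turn gave 0 to 357 genes higher, 0 to 404 lower and 0 to 3 of the 36 passing as higher. The median log2 fold change was 0.17 to 0.47 (the highest without WT 1). Of the 36, 10 to 17 did not overlap (17 without TSP2KO 1, 16 without WT 1 or without the library labelled WT 3). Groups separate more easily with a library less. Over all genes 14.2% did not overlap with all 6 libraries. Without the library labelled WT 3, 21.1% of all genes lay above and 22.3% below without overlap. For the other libraries left out, the share of all genes was not counted. The 357 higher and 404 lower genes and the 3 calls (Actn1, Itga4 and Itga8) came without the library labelled WT 3, and leaving out any other library gave 0 in either direction. The median of all genes was -0.01, and 0.01 with TMM and 0.03 with the 75th percentile.

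Of the values of 36 genes under 14 alternatives, 479 kept their direction and side of the threshold, 3 came to pass and 22 turned in sign. Itga11 turned to 0.013 after rescaling by the 75th percentile. The other turns came from leaving out a library, with log2 fold changes of -1.39 to 0.72 for Itga11, -1.12 to 0.58 for Itga3, -0.38 to 0.32 for Itga6, -0.060 to 0.22 for Itga9, -0.10 to 0.49 for Itgb1, -0.36 to 0.20 for Itgb3, -1.15 to 0.71 for Itgb4, -0.25 to 0.27 for Itgb5, -0.50 to 2.34 for Itgb6 and -0.20 to 0.40 for Tln2. The cause was not tested. With 3 libraries a genotype, the 95% intervals of most integrins include 0, and Itga10 was too low to test.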

Other observations

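Endothelial markers, 8 of 8 tested, also varied between libraries of the same genotype. Relative to WT 1 and WT 2 their mean log2 level was 1.29, 1.36 and -0.83 in the TSP2KO libraries, against 0.52, -0.52 and 2.42 in the WT libraries. Of the 8, 2 had a log2 fold change above 0 and 6 below, with a median of -0.32. None passed with all 6 libraries or reached an unadjusted p under 0.05 (0 higher and 0 lower), and Emcn, encoding the endothelial sialomucin endomucin, passed as higher without the library labelled WT 3. It had 445, 382 and 174 normalised reads in the TSP2KO libraries, against 90.1, 41.2 and 791 in the WT libraries. Tie1, Tek and Cdh5 had log2 fold changes of -1.11, -0.57 and -0.44 with all 6 libraries. Of the 11 dermal fibroblast markers, 9 had a log2 fold change below 0 and 3 lay below WT without overlap, where 8.27% of all genes did. Their median was -0.53, with 0 past the threshold and 3 lower at an unadjusted p under 0.05 (against 6.09% of all genes). Dcn, encoding the small matrix proteoglycan decorin, had 12199.7, 11094 and 2368 normalised reads in the TSP2KO libraries, against 50984, 55417 and 38394 in the WT libraries, and did not pass (limma adjusted p = 0.182, and 0.0550 without the library labelled WT 3). Of 9 skeletal muscle markers 2 were tested. Des, encoding desmin, had 18.4, 62.7 and 2.67 normalised reads in the TSP2KO libraries, against 15.97, 4.71 and 50.7 in the WT libraries, and overlapped (log2 fold change -0.05). Acta1, skeletal muscle actin, had 627, 298 and 466 normalised reads in the TSP2KO libraries, against 6.70, 12.2 and 203 in the WT libraries, and passed as higher without the library labelled WT 3 (limma adjusted p = 0.00525).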
